A study of Mus musculus with 78 samples.

Results

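The 9 genes described here, all of retinoid metabolism and reception, were followed in mouse embryonic stem cells that lost the transcription factor ZFP143 and were then differentiated with retinoic acid (RA): the retinol transporter gene Stra6, the retinal reductase gene Dhrs3, the RA-binding protein genes Crabp1 and Crabp2, the RA-degrading enzyme genes Cyp26a1 and Cyp26b1, and the RA receptor genes Rara, Rarb and Rarg. They were chosen by gene symbol from knowledge of the pathway, with earlier results of these data known. All 9 members were found among the 55401 genes of the 3 count tables. The cells were the E14TG2a line with FKBP12 F36V, 2xHA, P2A and eGFP fused to the end of both Zfp143 alleles, grown as clones from single GFP+ cells, so that 500 nM dTAG-V1 degrades ZFP143; every group carried these alleles, and DMSO was the control. The RA differentiation RNA-seq held 4 groups of 2 libraries: DMSO or dTAG for 24 h without RA, and the same treatments followed by a further 24 h with 1 µM all-trans RA, so that dTAG cells with RA had 48 h of depletion. RA came with a change from 2i to N2B27 medium, and N2B27 medium without RA is in no library, so the change called an RA effect here covers RA, the medium and a further 24 h of culture, which in dTAG cells is also a further 24 h of depletion, and these cannot be told apart. The other tables held RNA-seq after DMSO or 24, 48 and 72 h of dTAG, and TT-seq, which counts RNA labelled with 2 mM 4-thiouridine over 10 min, after DMSO or 2, 6 and 24 h of dTAG, with 2 libraries in each group.

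RA is made from retinol through retinal and acts as the ligand of nuclear receptors, the RARs, which pair with RXRs on response elements in DNA. Its level in a cell is held in check by its own target genes: CYP26 enzymes oxidise RA, DHRS3 reduces retinal back to retinol, STRA6 carries retinol across the membrane, and the CRABP proteins bind RA in the cytoplasm and hand it to enzymes or receptors. Rarb, Cyp26a1, Dhrs3 and Stra6 are textbook RA-induced genes, and RA is a standard agent for driving embryonic stem cells out of pluripotency towards neural and other fates.

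Promoter letters are shown first for Cyp26a1 and Rarb, the members in which an RA response element was found. Windows from 250 bases before to 50 bases after each RefSeq start (GRCm38.p6) were available for 8 of the 9 members, 17 windows in all, and were searched on both strands for a direct repeat of the degenerate RAR half-site with a spacing of 1, 2 or 5 bases (DR1, DR2 and DR5). A DR5 was found in the Cyp26a1 and Rarb windows and no repeat in the windows of the other 6 members searched. Of 32851 promoter windows of the same length, 0.0974% held a DR5 and 0.588% held any of the 3 repeats. The Cyp26a1 match lay on the minus strand of chr19:37697776-37697792, and began 32 bases before the RefSeq start, upstream of the first GENCODE start. The Rarb match lay on the gene's own strand, at chr14:16575513-16575529, which begins 53 bases before the RefSeq start and lies within the first exon, in the 5′ UTR, of GENCODE transcripts that begin further upstream. Capitals mark the DR5, read 5′ to 3′ on the strand of the gene, for Cyp26a1 in chr19:37697558-37697797 on the plus strand and for Rarb in chr14:16575506-16575535 on the minus strand.
Cyp26a1: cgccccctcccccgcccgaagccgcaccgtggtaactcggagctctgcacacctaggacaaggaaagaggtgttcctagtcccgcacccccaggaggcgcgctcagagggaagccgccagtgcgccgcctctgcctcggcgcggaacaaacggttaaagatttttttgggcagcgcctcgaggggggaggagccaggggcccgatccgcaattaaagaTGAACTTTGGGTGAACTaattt
Rarb: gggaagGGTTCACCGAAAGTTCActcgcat

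The first question was how these genes responded to RA in cells with ZFP143. In DMSO cells RA raised 8 of the 9 members and lowered none past the threshold, which was edgeR's glmTreat test against a 1.5-fold change at an adjusted p under 0.01; over all 15915 genes tested, 43.9% were called, 25.8% higher and 18.1% lower. The median log2 change of the 9 members was 6.24, against 0.03 over all genes tested. The RA-degrading enzymes, the uptake and reductase genes, Crabp2 and Rarb went from at most 4.24 CPM to at least 33.6 CPM in every library with RA, while Crabp1 and Rarg rose from levels that were already appreciable and Rara was the one member that was not called.

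**Figure D1:**
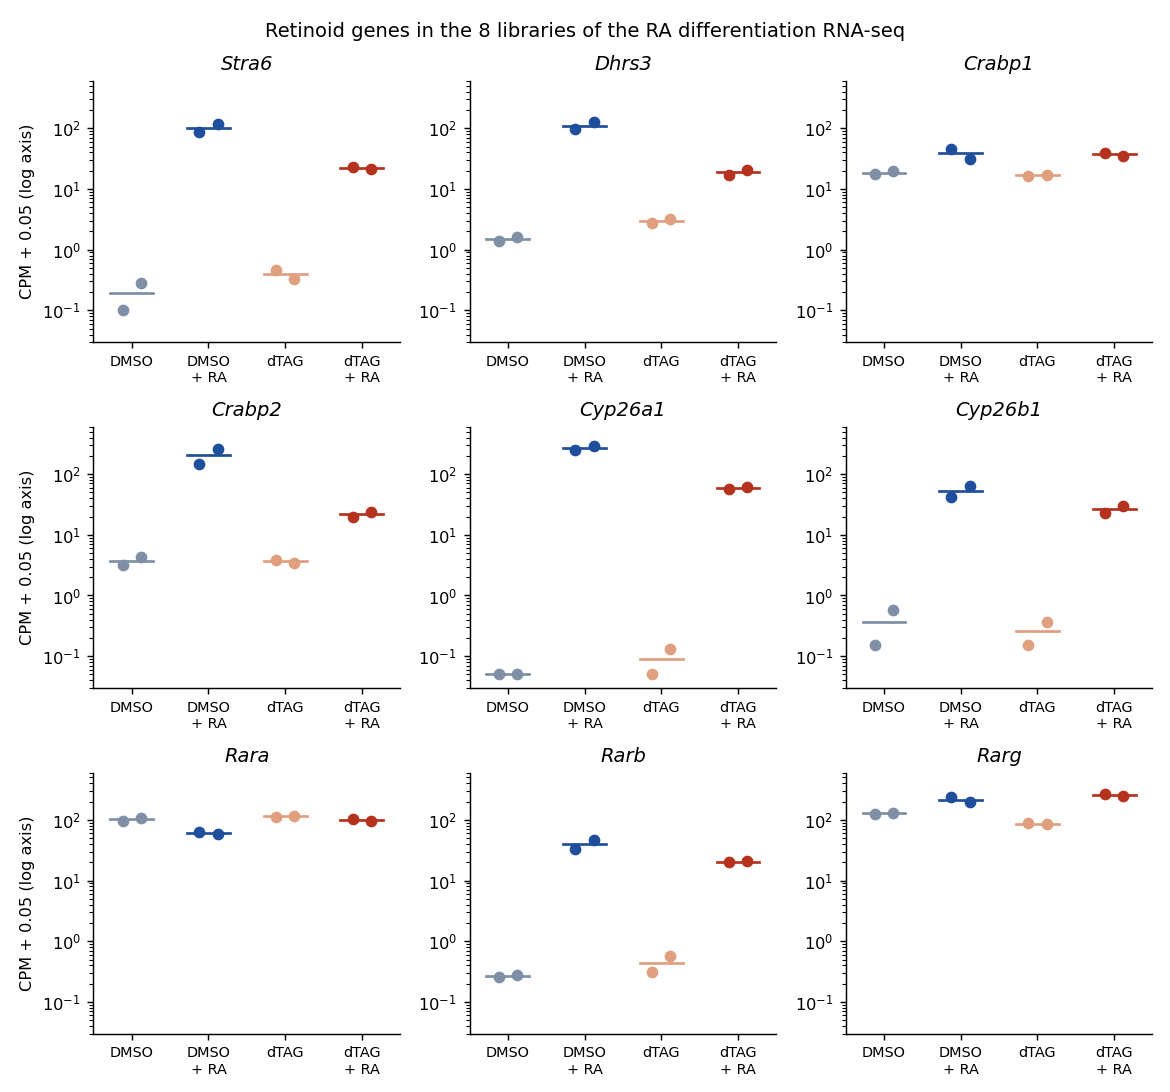
Normalised CPM (read counts scaled to a common library size) plus 0.05 on a log axis for the 9 genes in the 8 RA differentiation libraries; points are libraries and bars the mean of 2. Cyp26a1 climbs from 0 counts to 246 and 290 CPM with RA in DMSO cells and to 56.0 and 62.3 in dTAG cells, and Stra6, Dhrs3 and Crabp2 show the same gap, whereas the Crabp1 libraries after RA overlap between the treatments and those of Rarg are higher in dTAG cells (265 and 247 against 235 and 198 CPM).

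Cyp26a1, which encodes the main RA 4-hydroxylase of the early embryo, had 0 counts in both DMSO libraries and 246 and 290 CPM (counts scaled by library size with TMM) in the DMSO libraries with RA. Against a floor of 3 counts over the DMSO group, that is at least 3207-fold higher, the largest rise among the 9 members. In dTAG cells Cyp26a1 went from 0 and 0.0797 CPM, which is 2 counts in all, both in replicate 2, to 56.0 and 62.3 CPM, a ratio of 1312 with an exact counting interval of 363 to 10840. Every RA library of either treatment lay far above every library without RA.

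After RA, the Cyp26a1 level in dTAG cells was 22.1% of that in DMSO cells (95% confidence interval 19.3 to 25.2%; log2 change -2.18, adjusted p = 4.11e-12 by glmTreat), and the groups did not overlap. The difference of the RA effects could not be sized, since the DMSO baseline was 0 counts: the fitted value of -5.22 on the log2 scale depends on the prior count, and its adjusted p of 0.0644 in edgeR's quasi-likelihood test was not past 0.05. Over 13 other fits that p ran from 0.0335 to 1.00, and it was under 0.05 in 4 of them, among them DESeq2 (0.0448) and the fits without DMSO RA replicate 1 (fitted value -5.31) and without dTAG replicate 1 (-5.97).

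Cyp26b1, the second RA hydroxylase, stood at 0.105 and 0.516 CPM in DMSO cells and 41.5 and 64.2 CPM with RA. In dTAG cells it stood at 0.104 and 0.319 CPM without RA and at 22.7 and 30.2 CPM with it. The log2 change with RA was 7.41 ± 0.33 (SE) in DMSO cells and 6.84 ± 0.36 in dTAG cells, and Cyp26b1 was called higher in both. The exact counting intervals of these rises were 93.3- to 336-fold and 63.8- to 246-fold, wider than those of the fit. The sizes rested on few counts: the change in DMSO cells was 6.65 without DMSO replicate 1 and 8.88 without DMSO replicate 2, and that in dTAG cells 7.91 without dTAG replicate 2, all still called. Its level after RA was 50.6% of that in DMSO cells (39.8 to 64.3%), with no overlap between the groups. The log2 change was -0.98, and the adjusted p of that difference was 0.0169, just short of the threshold of 0.01, and the call was gained in 4 of 10 alternatives, among them the fits without DMSO RA replicate 1 (-1.27) and without dTAG RA replicate 2 (-1.18). The difference between the RA effects was -0.57 with an interval of -2.61 to 1.48 on the log2 scale, and its sign turned without DMSO replicate 1 (0.19) or dTAG replicate 2 (0.50).

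Stra6, the membrane receptor through which cells take up retinol from its carrier protein, rose from 0.0525 and 0.229 CPM to 87.3 and 116 CPM in DMSO cells. In dTAG cells it rose from 0.416 and 0.279 CPM to 22.5 and 21.5 CPM. Both treatments thus showed a strong rise from a near-silent start, and the RA libraries of dTAG cells were all below those of DMSO cells. The log2 change with RA was 9.47 ± 0.26 in DMSO cells and 6.00 ± 0.25 in dTAG cells, a difference of -3.47 ± 0.79 (adjusted p = 0.00121, quasi-likelihood test). At so few counts the SE of each rise is too small. In DMSO cells the interval of the fit was 511- to 1072-fold, and the exact counting interval was 308- to 2220-fold. With 1 and 4 counts in the DMSO libraries, the size rested on each of them: the difference was -2.75 without DMSO replicate 1 and -4.76 without DMSO replicate 2, and the RA change in DMSO cells 8.75 and 10.76, all still called. After RA the level in dTAG cells was 21.7% of that in DMSO cells (18.3 to 25.8%). Stra6 overlaps Ccdc33 on the other strand and the antisense-class gene Gm16131, so some of its reads may be shared.

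Dhrs3, which encodes the reductase that returns retinal to retinol, rose from 1.36 and 1.55 CPM to 95.9 and 125 CPM in DMSO cells. In dTAG cells it started higher, at 2.701 and 3.19 CPM, and ended lower, at 17.2 and 20.4 CPM. Its RA response therefore narrowed from both ends, from a 75.5-fold rise (58.9 to 97.5) in DMSO cells to a 6.33-fold rise (4.98 to 8.07) in dTAG cells. The difference of the log2 changes was -3.58 ± 0.29 (adjusted p = 6.07e-09, quasi-likelihood test). After RA, Dhrs3 in dTAG cells stood at 17.1% of its DMSO level, with an interval of 14.4 to 20.3%.

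Crabp2, whose protein delivers RA to its nuclear receptors, showed the deepest shortfall after RA of the 9 genes. It rose from 3.10 and 4.24 CPM to 147 and 259 CPM in DMSO cells and from 3.84 and 3.39 CPM to only 19.5 and 23.6 CPM in dTAG cells. The starting levels overlapped, and the levels after RA were apart. The rise was 55.2-fold (39.8 to 76.9) in DMSO cells and 6.00-fold (4.19 to 8.59) in dTAG cells, a log2 difference of -3.20 ± 0.39 (adjusted p = 1.26e-06, quasi-likelihood test). After RA the dTAG level was 10.7% of the DMSO level (8.27 to 13.8%).

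Crabp1, the close relative of Crabp2 whose protein is known for bringing RA to its degrading enzymes, behaved otherwise. It stood at 17.5 and 19.8 CPM in DMSO cells, 45.8 and 31.3 CPM with RA, 16.5 and 17.2 CPM in dTAG cells, and 39.6 and 35.5 CPM in dTAG cells with RA. The log2 rise was 1.07 ± 0.14 in DMSO cells and 1.16 ± 0.13 in dTAG cells, and the libraries after RA overlapped. The call of the rise in DMSO cells was lost without DMSO RA replicate 1 (0.75) and with DESeq2 (1.04, adjusted p = 0.0119; range over 10 alternatives 1.52e-06 to 0.0745). The difference between the RA effects was 0.09 with an interval of -0.31 to 0.49, which excludes a difference as large as that of Crabp2.

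Rarb, the RA-inducible receptor, rose from 0.210 and 0.229 CPM to 33.6 and 46.4 CPM in DMSO cells. In dTAG cells it rose from 0.260 and 0.518 CPM to 19.8 and 21.1 CPM. Rarb was induced in both, and after RA the dTAG libraries were both below the DMSO libraries. The level after RA was 51.7% of that in DMSO cells (42.7 to 62.5%; adjusted p = 0.00748 by glmTreat), and the RA effects differed by -1.82 ± 0.68 (adjusted p = 0.0331, quasi-likelihood test). Both calls were close to their thresholds. The first, a log2 change of -0.95, held in 4 of 10 alternatives (adjusted p 0.000171 to 0.286) and was lost without DMSO RA replicate 2 (-0.71), dTAG RA replicate 1 (-0.88) or dTAG RA replicate 2 (-0.98). The second held in 10 of 13 (adjusted p 0.00712 to 0.354) and was lost without DMSO replicate 1 (-1.76), DMSO replicate 2 (-1.88) or dTAG replicate 2 (-1.19).

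Rara, the broadly expressed receptor, stood at 96.8 and 106 CPM in DMSO cells and at 64.1 and 59.6 CPM with RA, the one member with lower values after RA. In dTAG cells it stood at 111 and 117 CPM without RA and at 102 and 96.5 CPM with it. The log2 change was -0.71 ± 0.08 in DMSO cells, which did not pass the 1.5-fold test (adjusted p = 0.0340; passed without DMSO replicate 1, -0.78), and -0.20 ± 0.07 in dTAG cells, which became 0.20 when scaled by library size alone, a scaling that raised the median of all genes to 0.39. These RA effects differed by 0.52 ± 0.11 (adjusted p = 0.000577, quasi-likelihood test), only just beyond the size threshold of 0.5, and the call was lost with no count filter and without any of 3 single libraries: DMSO replicate 2 (0.45), DMSO RA replicate 2 (0.47) and dTAG replicate 1 (0.48). After RA, Rara in dTAG cells was 160% of its DMSO level (143 to 179%; adjusted p = 0.144 by glmTreat), with no overlap between the groups.

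Rarg, the receptor gene with the highest level per kb in the DMSO cells of the RA table (29.9 CPM per kb, against 23.3 for Rara and 0.0417 for Rarb; in those of the time course Rara had 22.9 and Rarg 10.9), stood at 123 and 132 CPM in DMSO cells and 235 and 198 CPM with RA. In dTAG cells it started lower, at 87.1 and 86.7 CPM, and reached 265 and 247 CPM. The RA response was thus wider in depleted cells, in direction the reverse of Dhrs3. After RA the gap was small: Rarg in dTAG cells was at 118% of its DMSO level (105 to 132%), which glmTreat did not call. The rise was 1.70-fold (1.52 to 1.91) in DMSO cells and 2.94-fold (2.62 to 3.31) in dTAG cells, a log2 difference of 0.79 ± 0.11 (adjusted p = 1.05e-05, quasi-likelihood test). The call of the rise in DMSO cells was narrow (adjusted p = 0.00913 by glmTreat; 8.02e-07 to 0.230 over 10 alternatives, 3 of which called it), and among single libraries it was lost without DMSO replicate 1 (log2 change 0.72) or DMSO RA replicate 1 (0.63).

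**Figure D2:**
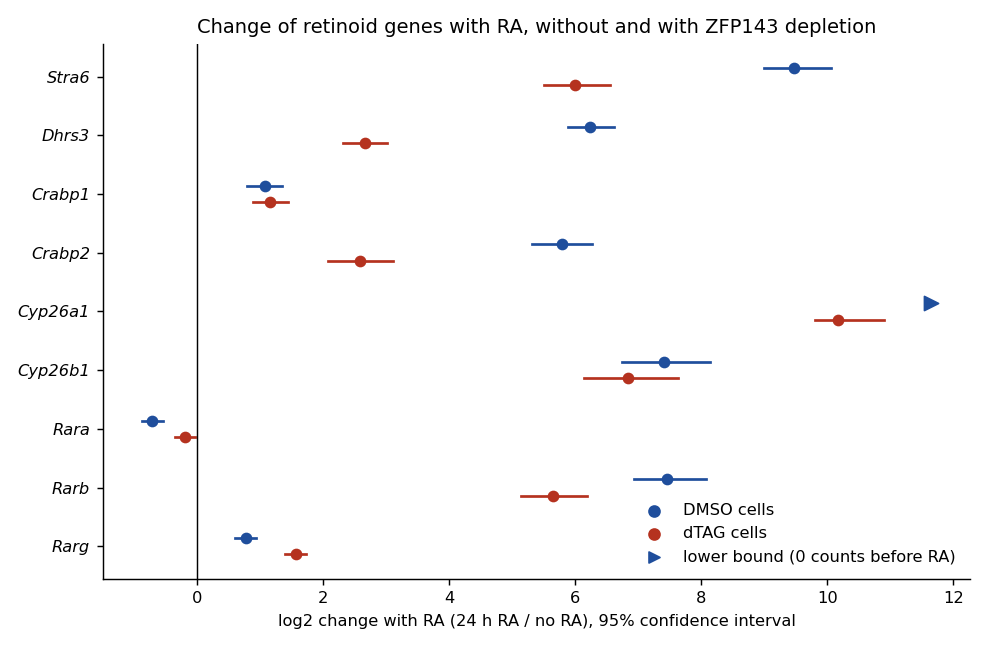
Log2 change with RA for each gene in DMSO cells (blue) and dTAG cells (red), with 95% confidence intervals from the edgeR fit; the triangle is a lower bound for Cyp26a1, which had 0 counts before RA. For Stra6, Dhrs3, Crabp2 and Rarb the red point lies to the left of the blue one with no overlap of the intervals, for Crabp1 the 2 coincide, and for Rarg and Rara the red point lies to the right. The intervals drawn for Stra6, Cyp26b1 and Rarb are narrower than counting error alone, since few counts were held before RA.

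In dTAG cells RA raised 8 of the 9 members, with Rara again the one not called; of all genes tested 43.5% were called in this comparison, 25.0% higher and 18.5% lower. The median of the 9 members was 2.66 on the log2 scale, against 6.24 in DMSO cells. The difference of the 2 responses was called for 6 members: Stra6, Dhrs3, Crabp2 and Rarb were raised less in dTAG cells, and Rara and Rarg had a higher log2 RA effect there. The call rule was an adjusted p under 0.05 with an absolute log2 difference above 0.5, which 31.7% of all genes tested passed, 13.7% towards higher and 18.0% towards lower. The median difference of the members was -1.82, against -0.07 over all genes tested.

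After RA, 5 of the 9 members were lower in dTAG cells (Cyp26a1, Stra6, Dhrs3, Crabp2 and Rarb) and none was called higher, where 7.36% of all genes tested were called lower and 9.10% higher. The members' median was -0.98 and that of all genes 0.00. With DESeq2, 4 of the 5 were called, without Rarb, where 9.76% of all genes tested were called, 765 lower and 789 higher. These comparisons share libraries, so they are readings of the same 8 libraries and not separate evidence.

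Relative levels per kilobase of exon (CPM per kb, a scale on which genes of different length can be set side by side) changed order between the treatments. In DMSO cells with RA, Crabp2 had 153 ± 60.2 (SD, n = 2) and Cyp26a1 had 135 ± 15.7 CPM per kb, and these neighbours did not differ beyond their spread. Rarg, Crabp1 and Dhrs3 followed at 50.8 ± 6.23, 48.1 ± 12.8 and 37.7 ± 7.02 CPM per kb, and their ranges touched in part. Stra6 had 17.5 ± 3.53, Rara 14.2 ± 0.732, Cyp26b1 9.88 ± 3.00 and Rarb 7.59 ± 1.72 CPM per kb, the last 2 within each other's spread. In dTAG cells with RA the order was led by Rarg, at 60.1 ± 3.06 CPM per kb, and Crabp1, at 46.8 ± 3.55. Cyp26a1 had 29.8 ± 2.24 and Rara 22.8 ± 0.918 CPM per kb, ahead of Crabp2 at 16.3 ± 2.204. Dhrs3 had 6.43 ± 0.782, Cyp26b1 4.95 ± 0.988, Rarb 3.89 ± 0.176 and Stra6 3.78 ± 0.131 CPM per kb. These orders were not tested, and in bulk RNA fewer expressing cells and less RNA per cell cannot be told apart.

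Depletion alone, before RA, called 0 of the 9 members by glmTreat (1 had an unadjusted p under 0.05, and DESeq2 also called 0), while 6.4% of all genes tested were called, 2.74% higher and 3.66% lower. Dhrs3 was 2.04-fold higher in dTAG cells (1.38 to 3.03), above in both libraries, with an adjusted p of 0.151 by glmTreat. Rarg was at 68.2% of its DMSO level (60.6 to 76.8%), below in both libraries, with an adjusted p of 1 by glmTreat. Against no change, rather than against 1.5-fold, the quasi-likelihood test gave these 2 adjusted p-values of 0.00457 and 1.55e-05, and they were the only members past adjusted p 0.05 and 0.5 on the log2 scale. Of all genes tested, 22.9% passed that rule.

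The RNA-seq time course without RA extends this to 72 h. Of the 9 members, 5 had enough counts to be tested (Dhrs3, Crabp1, Crabp2, Rara and Rarg), and 0 were called at 24 h and at 48 h, with 0 at an unadjusted p under 0.05 by glmTreat and 0 called by DESeq2 at both times. The shares of all 13925 genes tested that were called in either direction were 5.73% after 24 h (3.41% lower), 18.2% after 48 h (7.71% lower) and 25.8% after 72 h (12% lower). At 72 h Crabp1 was the 1 member called, and it was lower. It stood at 13.2 and 10.3 CPM in DMSO cells, and the dTAG libraries held 11.5 and 13.0 CPM (24 h), 16.0 and 16.5 CPM (48 h), and 5.83 and 5.73 CPM (72 h), so its values at 48 h lay above and those at 72 h below the control. The 72 h change was -1.01 ± 0.16 on the log2 scale (adjusted p = 0.00539 by glmTreat), and DESeq2 did not call it (adjusted p = 0.179; 0.000717 to 0.179 over 10 alternatives, 5 of which called it). The call was also lost without DMSO replicate 1 (-0.83), 72 h replicate 1 (-1.03) or 72 h replicate 2 (-1.01).

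Dhrs3 stood at 1.19 and 0.713 CPM in the DMSO libraries of the time course, and in the dTAG libraries at 1.21 and 1.64 CPM (24 h), 1.68 and 1.87 CPM (48 h), and 1.39 and 2.32 CPM (72 h). Each dTAG library was above both controls, as in the RA table before RA. The log2 changes were 0.61, 0.93 and 1.04, none of them called by glmTreat (adjusted p = 1, 0.278 and 0.132). Rarg was at 46.8 and 46.0 CPM in DMSO cells, and the dTAG libraries held 36.6 and 41.0 CPM (24 h), 46.7 and 43.3 CPM (48 h), and 34.0 and 35.7 CPM (72 h), below the controls at 24 and 72 h and overlapping them at 48 h. Rara lay between 97.9 and 102 CPM in DMSO cells and between 110 and 121 CPM in the 6 dTAG libraries, above in all of them, with log2 changes of 0.20, 0.19 and 0.26. Crabp2 stood at 5.05 and 3.71 CPM in DMSO cells and between 3.65 and 4.44 CPM in the 24 h and 48 h libraries. The 72 h libraries held 2.50 and 3.00 CPM, below both controls (log2 change -0.63, -1.12 to -0.14), with no call by glmTreat (adjusted p = 0.476) and an adjusted p of 0.0197 in the quasi-likelihood test against no change.

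**Figure D3:**
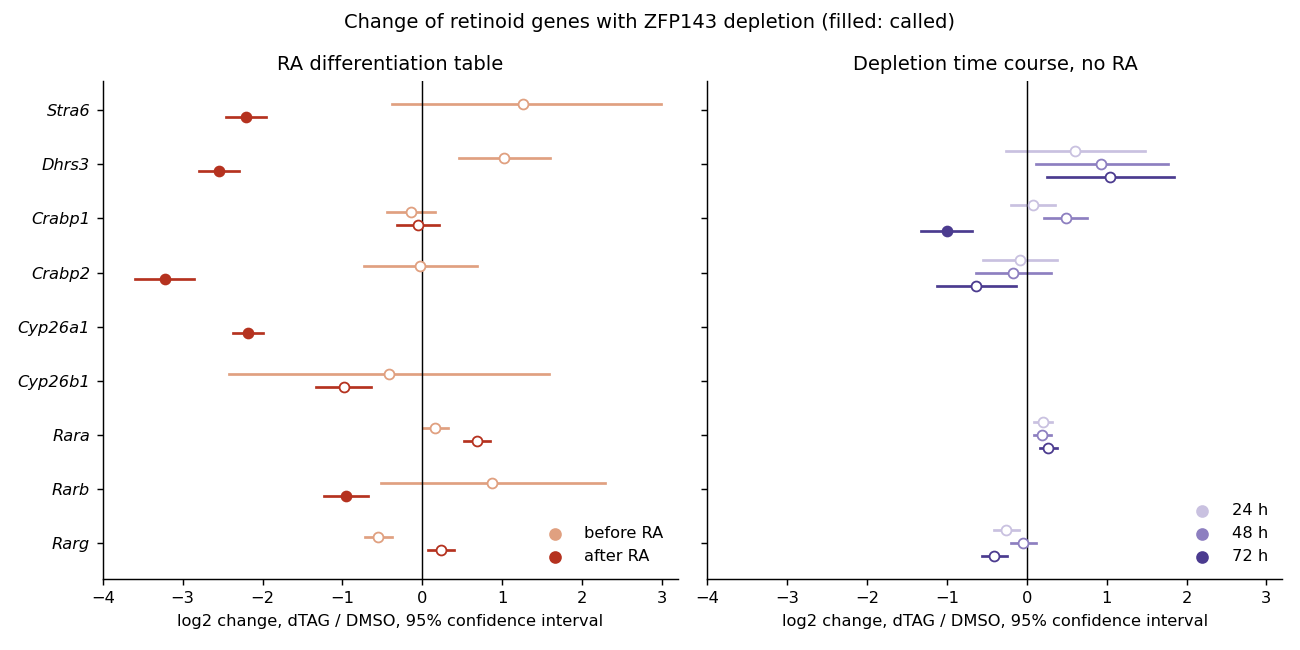
Log2 change between dTAG and DMSO cells with 95% confidence intervals, in the RA differentiation table before and after RA (left) and after 24, 48 and 72 h of dTAG without RA (right); filled points passed the threshold. Stra6, Dhrs3, Crabp2, Cyp26a1 and Rarb are filled and left of 0 only after RA, and on the right only Crabp1 at 72 h is filled; genes without a point had too few counts or a group with 0 counts.

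The members left out of the time course fit were all but silent there. Cyp26a1 had 0 counts in 6 libraries and 1 count in each 72 h library. Cyp26b1 had 1 count in each DMSO library, 4 and 4 counts in those of 24 h, 8 and 7 in those of 48 h, and 9 and 13 in those of 72 h, so every dTAG library was above both controls. Its ratio at 72 h was 10.8 with an exact counting interval of 2.65 to 94.4, which covers counting error only, and the RA table before RA, with 11 counts in DMSO and 10 in dTAG libraries, did not show such a rise. Rarb had 0 counts in DMSO libraries and 1 to 6 in each dTAG library, and Stra6 had between 0 and 3 counts in every library.

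In TT-seq, 2 libraries stood apart before any comparison was made. Between the replicates of the DMSO group 7.39% of 17870 genes tested differed by more than a factor of 2, and between those of the 24 h group 7.50%, against 2.71 and 2.78% in the 2 h and 6 h groups. The difference fell on members: Rarb had 0.517 CPM in DMSO replicate 1 and 5.79 in DMSO replicate 2, 1.28 and 6.31 at 24 h, and 0.482 to 1.33 CPM in the 2 h and 6 h libraries. Rarg had 14.6 and 47.3 CPM in DMSO cells, 10.5 and 40.6 at 24 h, and 11.5 to 17.6 CPM at 2 h and 6 h. Dhrs3 had 10.0 and 17.5 CPM in DMSO cells, 8.95 and 17.2 at 24 h, and 9.26 to 11.7 CPM at 2 h and 6 h. For all 3 genes replicate 2 of DMSO and of 24 h was the high library, whichever treatment it had, and Rara had its 2 lowest values in the same libraries, 105 and 121 CPM against 133 to 163 CPM in the other 6. The summed level of the naive pluripotency markers lay between 3692 and 4266 CPM in all 8 libraries, a sum that does not show single markers such as Dppa3 (4.18 ± 4.18 CPM in DMSO, SD, n = 2) and Nanog (300 ± 96.5 CPM). Cdx1, an RA target, also spread widely in the same groups, at 25.0 ± 29.1 CPM in DMSO and 21.4 ± 27.2 CPM after 24 h, against 4.03 ± 0.501 and 3.21 ± 0.133 CPM after 2 h and 6 h.

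**Figure D4:**
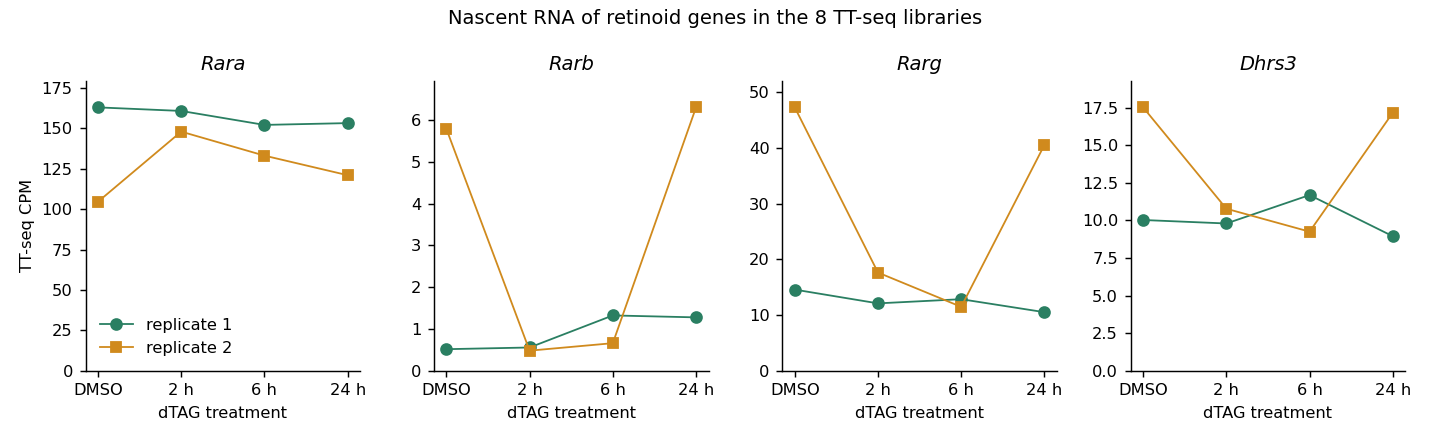
TT-seq CPM of Rara, Rarb, Rarg and Dhrs3 in each library by dTAG time, with lines joining libraries of the same replicate number. Replicate 2 is far above replicate 1 in DMSO and at 24 h for Rarb (5.79 and 6.31 against 0.517 and 1.28 CPM), Rarg and Dhrs3, and below it for Rara. As a ratio of the replicates, no gene at 2 h and 6 h shows a gap as wide as those of Rarb and Rarg in DMSO.

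Of the 9 members, 7 passed the count filter in TT-seq, all but Cyp26a1 and Cyp26b1. None was called at 2, 6 or 24 h by the quasi-likelihood test (1, 0 and 0 at an unadjusted p under 0.05, and 0 by DESeq2 at each time), and of all genes tested 2.60, 3.23 and 6.11% were called. Those calls were 0.168, 0.397 and 2.02% higher and 2.43, 2.83 and 4.09% lower. With the replicate number as a block, 4.19, 7.36 and 12.4% of all genes were called. The count stayed at 0 with the replicate number as a block and without the 2 libraries that stood apart. Without a count filter Rarb and Rarg were called lower at 2 h and 6 h. In that setting 2.57 and 3.62% of 36394 genes were called, 774 and 980 of them lower. With the filter, leaving out the 2 libraries moved the Rarb change at 2 h from -2.64 to 0.013 and that of Rarg from -1.06 to 0.052 on the log2 scale. A change of the members' nascent RNA was not detectable in these 8 libraries, and the intervals were wide, from -5.14 to -0.19 for Rarb at 2 h.

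The genes of the wider pathway were taken from a list of 41 others, of which 29 were tested in the RA table. RA raised 10 and lowered 4 of them in DMSO cells and raised 12 and lowered 3 in dTAG cells. Before RA, 2 were higher and 3 lower in dTAG cells, and after RA 3 were higher and 3 lower. The difference of the RA effects was called for 11, with 7 towards higher and 4 towards lower, and the median was 0.21 against -0.07 over all genes tested. Over all genes, 25.8% were called higher and 18.1% lower with RA in DMSO cells, 25.0 and 18.5% in dTAG cells, 2.74 and 3.66% for dTAG before RA, 9.10 and 7.36% for dTAG after RA, and 13.7 and 18.0% for the difference.

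Both retinal dehydrogenase genes of the list that were tested, whose enzymes complete RA synthesis, differed in the direction opposite to Stra6, Dhrs3 and Crabp2. Aldh1a2, the main retinal dehydrogenase of the embryo, stood at 3.05 ± 0.151 CPM (SD, n = 2) in DMSO cells and 2.46 ± 1.07 with RA, and at 4.60 ± 0.474 in dTAG cells and 9.39 ± 0.356 CPM with RA. Its RA effects differed by 1.27 (adjusted p = 0.00300, quasi-likelihood test). Aldh1a3, a second retinal dehydrogenase, stood at 0.893 and 0.257 CPM without and with RA in DMSO cells and at 0.860 and 2.54 CPM in dTAG cells, a difference of 3.29 (adjusted p = 0.000104, same test). Rdh10, which makes retinal from retinol, had means of 4.54, 6.39, 4.52 and 8.74 CPM in the same order, with no call of the difference (0.45, adjusted p = 0.150, same test).

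The other genes among the 8 with the largest called differences were Rdh12 (2.24), Dgat1 (0.95) and Ppard (0.86) towards higher and Fabp5 (-1.80), Rbp4 (-1.42) and Stra8 (-0.90) towards lower, each as the difference of log2 RA effects. Rdh12 and Dgat1, a retinaldehyde reductase and an acyltransferase that can esterify retinol, were also called lower in dTAG cells before RA (-4.15 and -1.04). Levels after RA went against the sign of the difference for Rdh12 (3.28 CPM in DMSO and 0.877 in dTAG cells) and Rbp4 (11.5 and 14.1 CPM). Without RA, Rdh12 had 0.902 and 0.0459 CPM (2 counts in dTAG cells) and Rbp4 0.494 and 1.63 CPM. Stra8, a germ cell gene strongly induced by RA, rose from 0.795 ± 0.0106 to 777 ± 30.1 CPM in DMSO cells and from 2.18 ± 0.438 to 1119 ± 16.1 CPM in dTAG cells. Its level was above that of DMSO cells in both libraries after RA, with no call (log2 change 0.53, adjusted p = 1 by glmTreat).

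Of the genes for RXRs, the partners of the RARs, none was called in the difference of RA effects. Rxra stood at 30.4 and 54.9 CPM without and with RA in DMSO cells and at 31.9 and 59.1 CPM in dTAG cells, with a difference of RA effects of 0.04 (adjusted p = 0.829, quasi-likelihood test). Rxrb stood at 76.3 and 86.3 CPM and at 52.9 and 65.1 CPM, a difference of 0.12 (adjusted p = 0.415, same test). Rxrg was near 0 before RA.

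**Figure D5:**
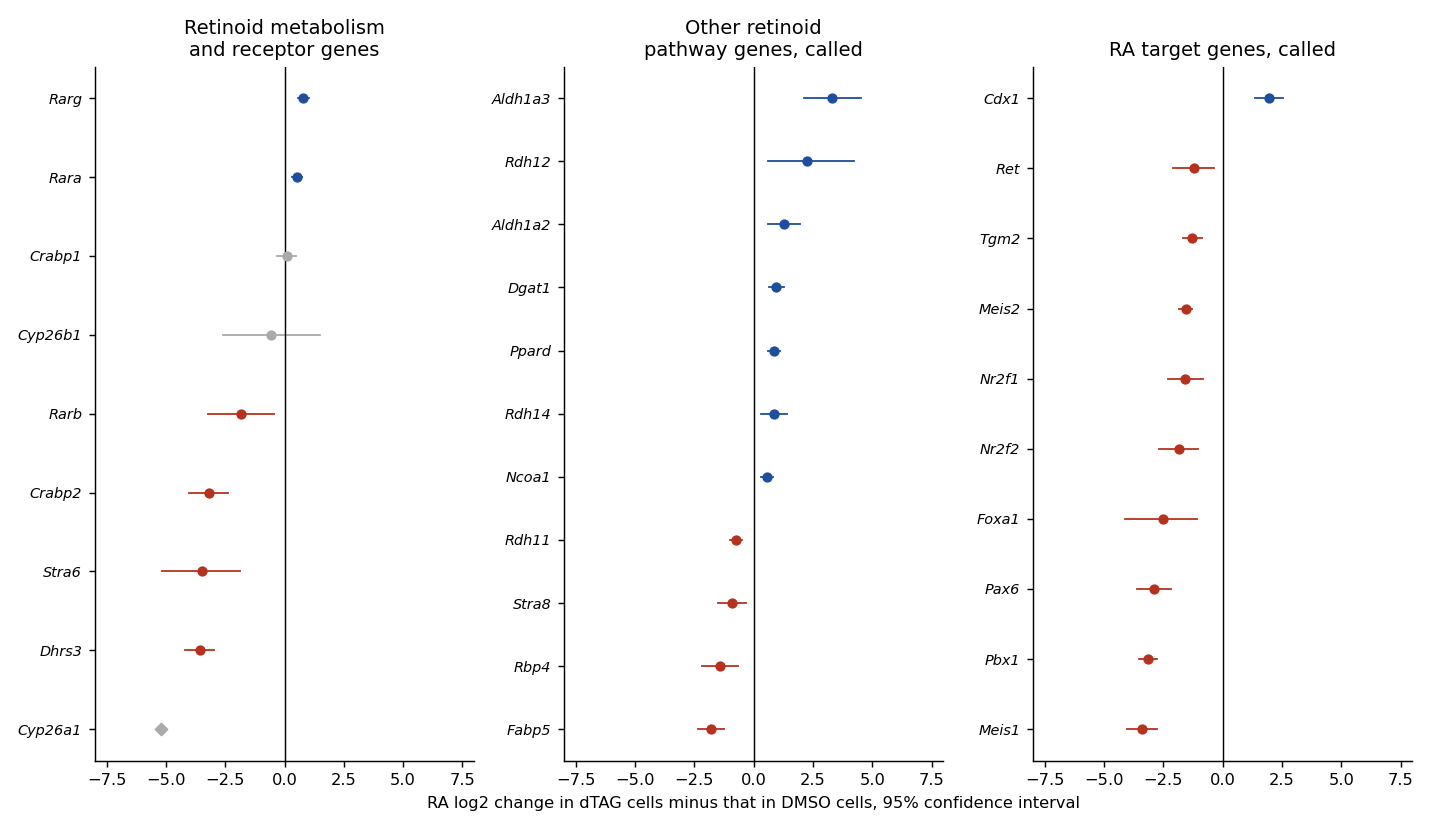
Log2 change with RA in dTAG cells minus that in DMSO cells, with 95% confidence intervals, for the 9 genes and for the called genes of the other retinoid pathway list (11) and of the RA target list (10); red was called lower, blue called higher, grey not called, and diamonds have a group with 0 counts and no interval. Dhrs3, Stra6, Crabp2 and Rarb are red among the 9, Aldh1a3 and Aldh1a2 are blue in the middle panel, and 9 of the 10 RA target genes shown are red.

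Of 16 textbook RA target genes outside retinoid metabolism, 14 were tested. RA raised 13 in DMSO cells and 10 in dTAG cells, and the difference was called lower for 9 and higher for 1, with a median of -1.57. Over all genes tested, 25.8 and 25.0% were raised, and the difference was called lower for 18.0% and higher for 13.7%. Before RA the targets' median in dTAG cells was 0.81, with 1 called higher and 1 lower (all genes 2.74 and 3.66%). After RA it was -1.24, with 1 higher and 8 lower (all genes 9.10 and 7.36%). Depletion for 24, 48 and 72 h without RA gave medians of 1.00, 2.12 and 1.72 over 9 targets tested. Of these, 2, 5 and 5 were called higher (all genes 2.32, 10.5 and 13.7%) and 0, 0 and 1 lower (3.41, 7.71 and 12%). Meis1, a HOX cofactor gene, rose from 0.986 ± 0.0162 to 44.3 ± 8.81 CPM in DMSO cells and from 3.11 ± 0.218 to 13.1 ± 1.25 CPM in dTAG cells (difference -3.41, adjusted p = 2.12e-08, quasi-likelihood test), a pattern like that of Dhrs3. Nr2f1, an orphan receptor gene, differed by -1.58 (adjusted p = 0.00125, same test). Hoxb1 had 0 counts without RA and reached 143 ± 16.2 CPM in DMSO cells and 24.7 ± 1.27 CPM in dTAG cells. Cdx1 was the 1 target called towards higher (1.95). Its means without and with RA were 17.3 and 20.2 CPM in DMSO cells and 6.86 and 32.1 CPM in dTAG cells. Its log2 RA effect was thus larger in dTAG cells, unlike those of Meis1 and Nr2f1. Part of that difference lay in the Cdx1 level before RA, which was lower in dTAG cells.

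Cell state markers moved with the treatment. All 10 naive pluripotency markers fell with RA in both treatments, and their summed level after RA was 707 to 1045 CPM in DMSO cells and 1372 to 1615 CPM in dTAG cells, with no marker at 0. Single markers differed: Esrrb, Klf4, Tfcp2l1 and Tbx3 were called higher in dTAG cells after RA and the other 6 were not, among them Pou5f1, with means of 444 CPM in DMSO cells and 423 CPM in dTAG cells. Esrrb had the widest gap, 67.5 and 371 CPM. In the difference of RA effects 8 of the 10 were called higher, all but Pou5f1 and Dppa3, with a median of 1.01, against 13.7% and -0.07 over all genes tested. The summed mesoderm markers (7 genes) were 16.2 to 17.7 CPM in DMSO cells with RA and 35.2 to 37.5 in dTAG cells with RA; of the 5 tested, Mesp2 (4.01 and 19.3 CPM) and Mixl1 were called higher, while Eomes stood at 8.12 and 8.10 CPM. The primitive endoderm markers (8 genes) were 41.3 to 43.2 and 57.7 to 59.6 CPM (before RA 5.77 to 6.30 and 10.0 to 12.3 CPM), with Gata6 called higher and Dab2 lower after RA, the trophoblast markers (7 genes) 27.5 to 34.4 and 36.9 to 40.6 CPM, and the fibroblast markers (6 genes, Dcn and Lum at 0) 6.58 to 10.3 and 25.9 to 26.2 CPM in the same order. The neural markers (8 genes) went the other way, at 113 to 129 CPM in DMSO cells with RA and 63.8 to 69.0 CPM in dTAG cells with RA. Before RA the sums were 241 to 256 and 138 to 141 CPM, a gap of other genes, mainly Tubb3 (168 and 74.2 CPM). Of the 5 tested, Pax6 (51.9 and 13.2 CPM after RA, 0.735 and 1.44 CPM before, and also on the list of RA targets) and Nes were called lower in dTAG cells after RA and Zic1 (4.20 and 13.3 CPM) higher. Their part in the members' differences was not tested.

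Zfp143 mRNA, which does not report on a protein degraded after translation, was higher in dTAG cells of every table: 40.5 ± 6.16 CPM in DMSO cells and 104 ± 3.93 CPM in dTAG cells before RA, and 35.1 ± 0.209 and 91.3 ± 2.46 CPM after RA. It therefore separates the groups as the labels do but does not check the loss of ZFP143.

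ZFP143 ChIP-seq peaks of DMSO cells, a single list of 3189 regions called against input, were set against annotated transcript starts. Of the 9 members, 1 had a peak at a start, Rarb, by the rule of an overlap with the window from 2000 bases before to 1000 bases after a start and a centre within 2000 bases of it; 10.0% of 22028 protein-coding genes had one. The Rarb peak, chr14:16575421-16575794, had its centre 64 bases from a start of the shorter Rarb transcripts and spanned the DR5 shown above. Its enrichment over input was 9.89-fold, below the median of 20.8-fold over all peaks. The nearest peak to a Rara start lay 5.44 kb away, and to the starts of Crabp2, Rarg and Dhrs3 29.2, 38.7 and 56.7 kb. For Stra6, Crabp1, Cyp26a1 and Cyp26b1 the distance was 153, 196, 223 and 476 kb. Of the 5 members that were lower in dTAG cells after RA, 1 had a called peak centre within 10000 bases of a start, where 14.3% of protein-coding genes had one. In the wider pathway 10 of the 41 genes had a peak at a start, among them Rxrb, Rdh10, Rdh11, Rdh12, Rdh13, Rdh14 and Dgat1.

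In TT-seq, 4 of the 27 pathway genes tested were lower at 2 h (Rxrb, Rdh13, Rdh14 and Dgat1), and 0 were higher, where 2.43% of all genes were called lower. All 4 had a peak at a start, a choice of genes made after their values were seen. Of the other 6 pathway genes with a peak at a start, Rdh12 was not tested and Ncoa3, Rdh10, Rdh11, Retsat and Stra6l were not called at 2 h. The Rxrb change at 2 h was -1.16 as a log2 value (adjusted p = 0.0164, quasi-likelihood test). It was also called lower after 6 h (-1.28) and after 24 h (-1.40).

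The genes whose pattern over the 8 RA libraries was most like that of Cyp26a1, by Pearson's r of log2 CPM among 11335 genes with a mean of at least 100 counts, were Pi4k2b (r = 1.00), Igf1r (r = 0.999) and Hoxb5 (r = 0.999). Hoxb5 had 0 CPM without RA, 27.9 CPM in DMSO cells with RA and 9.44 CPM in dTAG cells with RA. Those most like Dhrs3 were Spire1 (r = 0.998), 1700025G04Rik (r = 0.997) and Cers6 (r = 0.997). Spire1 had 35.8 and 101 CPM without and with RA in DMSO cells and 42.8 and 66.1 CPM in dTAG cells, so it too started higher and ended lower. The 8 libraries form 4 groups, and r reflects the group means more than the spread within them.

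In genome terms (mm10), the members lie apart: Crabp2 on chr3:87948666-87953376, Dhrs3 on chr4:144892827-144928209, Cyp26b1 on chr6:84571414-84593908, Crabp1 on chr9:54764748-54773110, Stra6 on chr9:58063788-58153996, Rara on chr11:98927818-98974942, Rarb on chr14:16430839-16819156, Rarg on chr15:102234938-102257517 and Cyp26a1 on chr19:37697798-37701536. Rarb overlaps Top2b and Gm48162, both on the other strand, and Rara contains the small nuclear RNA gene Gm22061. The other members besides Stra6 overlap no annotated gene.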

How the data were processed

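RNA-seq and TT-seq of ZFP143-FKBP mouse embryonic stem cells were analysed from 3 tables of gene counts that the authors deposited, raw and not normalised, with 2 libraries per group, which the study calls replicates; the p-values measure the spread between these. Per the paper's methods, reads were aligned with STAR to mm10 with GENCODE annotation, counted by STAR for RNA-seq (the strand setting is not given in the sources used here) and by HTSeq over whole genes, by strand, after removal of duplicates for TT-seq. Total counts were 13890761 to 27089033 per library in the RA table, 10261851 to 15316700 in the RNA-seq time course and 9721568 to 16532077 in TT-seq. No 2 libraries held identical values. Symbols for 55141 of 55401 gene IDs, coordinates and lengths came from GENCODE vM21 (GRCm38), an older release on the same build. The deposited ZFP143 peak list gives fold enrichment over input as a ratio, and −log10 q per peak (not used in any threshold here), as the authors' caller wrote them.

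Each table was fitted once with edgeR 4.0.16 (R 4.3.3) over 4 group means with TMM scaling, keeping a gene if 4 or more of the 8 libraries held over 10 counts (15915, 13925 and 17870 genes). For RNA-seq the test was glmTreat, a test against a 1.5-fold change, at Benjamini-Hochberg adjusted p under 0.01. TT-seq and the difference of RA effects used the quasi-likelihood test at 0.05 with an absolute log2 change above 0.5. Both were run on simulated counts in which only well-counted genes changed and no shift was shared between libraries, so members near 0 counts are not covered. Each SE is the log2 change divided by the root of its F statistic, and 95% intervals follow from it. For the RA effects of Stra6, Rarb and Cyp26b1 these intervals are narrower than counting error alone. CPM used the TMM-scaled size of the tested genes, and CPM per kb the summed exon length. Intervals of count ratios are Clopper-Pearson and cover counting error only. DESeq2 1.42.0, other scalings and filters, a replicate block and left-out libraries were alternatives. Deviations of same-numbered libraries correlated in TT-seq (r = 0.193 to 0.631 over the 6 pairs of groups), where the numbers were taken to pair the samples, but not in the RA table (-0.0986 to 0.125) or the time course (-0.0419 to 0.0621). The main TT-seq fit held no block, so its p-values, intervals and called shares ignore that pairing, and the fit with a block is an alternative. The 9 genes and the lists were chosen with earlier results of these data known. Values were given for the 9 members everywhere, for pathway genes called in the difference of RA effects (8 by size) with the RXR genes, Aldh1a2 and Rdh10, and for Hoxb1, Cdx1, Meis1 and Nr2f1 among RA targets; some genes that this rule names are not reported here. Promoter sequences are RefSeq's. CTCF peaks and 4C data were not used here.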

Additional observations from a re-analysis of the deposited data

Results flagged for a closer look

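The RA response of 6 of the 9 genes differed between DMSO and dTAG cells by the test of the difference itself (edgeR quasi-likelihood, adjusted p under 0.05 and an absolute log2 difference above 0.5), which is what marked them; 31.7% of all genes tested passed the same rule. Each value is the log2 RA effect in dTAG cells minus that in DMSO cells, with 2 libraries per group. The difference was -3.58 for Dhrs3, -3.47 for Stra6, -3.20 for Crabp2 and -1.82 for Rarb, and 0.79 for Rarg and 0.52 for Rara. For Dhrs3, Stra6, Crabp2 and Rarg it was called in all 13 alternatives at the same threshold, for Rarb in 10 and for Rara in 9. In the same difference of RA effects 8 of 10 naive pluripotency markers were called higher (median 1.01), and their summed level after RA was 1372 to 1615 CPM in dTAG cells and 707 to 1045 CPM in DMSO cells. Their part in these differences was not tested.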

How the results depend on the processing

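Of 535 values under alternative settings, over 46 log2 changes and differences of members given in the text, 476 kept their direction and their side of the threshold, 30 lost the call, 20 gained it and 9 turned sign; all 9 were of values not called. Among counts of members called, the other threshold (quasi-likelihood in place of glmTreat, or the reverse) gave 2 before RA, 3 for the difference of RA effects (Crabp2, Dhrs3 and Stra6), 1 at 48 h (Dhrs3) and 3 at 72 h (Dhrs3 higher, Crabp1 and Crabp2 lower). It gave 7 after RA, adding Cyp26b1 lower and Rara higher, and 9 for RA in DMSO cells, adding Rara lower, where DESeq2 gave 6. For RA in DMSO cells DESeq2 called 34.5% of all genes. At that threshold 22.9% of all genes were called before RA, 39.6% after RA, 62.6% for RA in DMSO cells, 8.88% for the difference, 38.0% at 48 h and 46.4% at 72 h. At 72 h, library size alone and DESeq2 gave 0 and no count filter gave 2, where 27.6, 16.4 and 14.5% of all genes were called. No count filter gave 2 in TT-seq at 2 h and at 6 h, where 2.57 and 3.62% of all genes were called. A ZFP143 peak centre within 10000 bases of a start was found for 2 members, and peaks at or above the median enrichment gave 0. With scaling by total counts only (library size alone), the all-gene median went from 0.03 to 0.35 for RA in DMSO cells, from 0.00 to 0.39 for RA in dTAG cells, and from 0.00 to 0.21 for dTAG after RA, and the Rara change with RA in dTAG cells became 0.20. The share of called genes that were higher went from 58.8 to 75.1%, from 57.5 to 78.2% and from 55.3 to 73.3% in these comparisons, and before RA from 42.8 to 56.5% (23.2% with DESeq2). In the time course it went from 40.5, 57.6 and 53.3% at 24, 48 and 72 h to 56.3, 74.6 and 71.2%.

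Leaving out 1 library in turn, the difference of RA effects ranged from -2.04 to 0.50 for Cyp26b1 and from -0.15 to 0.41 for Crabp1. In TT-seq at 2 h, the change ranged from -3.46 to 0.014 for Rarb and from -1.66 to 0.051 for Rarg; without both the DMSO and the 24 h library of replicate 2, an alternative chosen after seeing the data, it was 0.013 and 0.052. Where a group was left with 1 library, it was assumed to vary like the others. The replicate block changed the calls of 3 values: Cyp26a1 was called in the difference of RA effects (-5.20) and Cyp26b1 after RA (-0.98, adjusted p = 0.00151 by glmTreat), and Rarg with RA in DMSO cells was lost (0.76). In the RA table and the time course the samples share only a number; in TT-seq the block changed no call of a member. The cause of these moves was not tested. With 2 libraries per group and 0 to 13 counts for Cyp26a1, Cyp26b1, Rarb and Stra6 before RA, depth limits every fold that rests on those levels.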

Other observations

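Rarg stood at 123 and 132 CPM in the DMSO libraries of the RA differentiation table and at 46.8 and 46.0 CPM in the DMSO libraries of the RNA-seq time course, both of undifferentiated cells; the tables were scaled separately, and this difference between them was not tested. The DMSO levels of Rara were 96.8 and 106 CPM in the first and 102 and 97.9 CPM in the second.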
